A study of Homo sapiens with 6 samples.

Results

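YAP-TEAD target genes and components were followed in a comparison of TKT-overexpressing with control hepatocellular carcinoma cells. The 10 genes were ANKRD1, CCN1, CCN2, THBS1, AMOTL2, AJUBA, LATS2, YAP1, WWTR1 and TEAD1. They were taken by symbol from a table of 22077 gene symbols, and all 10 were present and were among the 14162 genes tested. They were listed with results of this same comparison known, above all the difference in ANKRD1, so their differences between groups are given as a description and no p-value of any of the 10 is printed. TKT is transketolase, an enzyme of the non-oxidative branch of the pentose phosphate pathway. Total RNA of 3 over-expression and 3 control samples was sequenced as paired reads, and the over-expression samples carried a TKT plasmid with GFP and puromycin markers according to the Methods. The sample labels spell the cell line Hu7 and the study's Results name Huh7, a human liver cancer line that makes many hepatocyte proteins, but its Methods name HCCLM3. The labels call the replicates of a group biosamples and give no culture or day, so any p-value below measures only the spread between these samples.

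YAP (the product of YAP1) and TAZ (the product of WWTR1) are transcriptional coactivators that bind DNA through TEAD factors such as TEAD1. The kinases of the Hippo pathway, LATS1 and LATS2 at the end of the cascade, phosphorylate YAP and TAZ and keep them in the cytoplasm, and cell contact, cell shape and tension on the cytoskeleton act on this step. In liver the pathway is known for its control of organ size and for its part in liver cancer. Activity of YAP and TAZ is commonly read from CCN1 (also called CYR61), CCN2 (also called CTGF) and ANKRD1, while other targets such as LATS2 and AMOTL2 act back on the pathway.

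The RefSeq promoter windows, which run from 250 bases before to 50 bases after a transcription start on GRCh38.p14, are shown here because the genes are grouped by the factor said to bind them. Windows were given for 8 of the 10 genes, 11 windows in all, and CCN1 and TEAD1 had no entry. The letters of the TEAD motif, CATTCC on either strand (GGAATG on the other), were searched. The 250 bases before the start are printed for ANKRD1, CCN2 and THBS1 and for 1 start of AMOTL2. These were picked by hand among the windows that hold a match there, and those of AJUBA and YAP1 that also do are not printed. Each is on the strand of its gene, with the matches in capitals.
ANKRD1, chr10:90921088-90921337, minus strand: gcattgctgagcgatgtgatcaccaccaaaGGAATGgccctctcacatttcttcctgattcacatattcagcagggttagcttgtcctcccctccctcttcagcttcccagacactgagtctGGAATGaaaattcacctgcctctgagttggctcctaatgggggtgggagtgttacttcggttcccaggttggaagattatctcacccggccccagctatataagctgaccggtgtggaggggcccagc
CCN2, chr6:131951373-131951622, minus strand: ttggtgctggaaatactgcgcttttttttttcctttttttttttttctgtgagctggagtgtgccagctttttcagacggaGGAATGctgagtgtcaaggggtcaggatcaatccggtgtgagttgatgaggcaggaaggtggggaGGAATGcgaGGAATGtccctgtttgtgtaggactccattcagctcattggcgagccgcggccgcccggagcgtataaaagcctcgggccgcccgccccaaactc
THBS1, chr15:39580829-39581078, plus strand: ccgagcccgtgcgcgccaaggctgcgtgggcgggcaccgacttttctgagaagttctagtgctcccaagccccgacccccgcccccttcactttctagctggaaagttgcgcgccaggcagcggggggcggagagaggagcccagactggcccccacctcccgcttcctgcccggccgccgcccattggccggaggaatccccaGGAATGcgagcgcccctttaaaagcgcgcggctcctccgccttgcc
AMOTL2, chr3:134374448-134374697, minus strand: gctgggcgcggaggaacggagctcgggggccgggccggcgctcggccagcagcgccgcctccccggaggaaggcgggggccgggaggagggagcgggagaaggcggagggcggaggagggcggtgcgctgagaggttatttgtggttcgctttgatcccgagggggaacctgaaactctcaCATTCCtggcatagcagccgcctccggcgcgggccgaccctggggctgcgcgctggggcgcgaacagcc
With the first base of the transcript as 1 and the base before it as -1, CCN2 held 3 matches, which began at -169, -104 and -95, and ANKRD1 held 2, at -220 and -128. THBS1 held 1 at -46, and AMOTL2 held 1 at -69 of the start shown and none at its other start. Of the windows not printed, 1 of the 2 of AJUBA held a match at -59, that of YAP1 held 1 at -162, that of LATS2 held 1 at 10, and neither of the 2 of WWTR1 held any. At least 1 match was in 14.0% of all 35116 windows, at least 2 in 1.37% and at least 3 in 0.128%. The AP-1 motif TGANTCA, which reads the same on either strand and does not overlap the TEAD letters, was found in 1 of the 11 windows, that of ANKRD1 at -195, and in 7.71% of all windows. The CArG box of serum response factor was in none of the 11 and in 1.29% of all windows. A match describes letters only, and binding was not measured.

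Total counts lay between 30148788 and 37096156 per library. TKT itself was at 494 ± 23.0 CPM (counts per 1000000 reads after TMM scaling; SD, n = 3) in control cells and 9442 ± 88.2 CPM (SD, n = 3) in TKT-overexpressing cells, in the direction of the labels. Hepatocyte markers were present, with AFP at 8329 CPM and ALB at 7910 CPM in control cells, except APOB, which had at most 6 counts in any library. The summed level of the hepatocyte markers lay between 17549 and 17905 CPM in control cells and between 17948 and 18262 CPM on overexpression, and HNF4A was lower (log2 fold change -0.15). Markers of cardiac or skeletal muscle, in which ANKRD1 is best known, summed to at most 0.0596 CPM in a control library and 0.458 CPM in a TKT-overexpressing library, with MYH7, ACTC1 and DES at 0 in all control libraries. Summed fibroblast markers lay between 1.74 and 2.51 CPM in control cells and between 1.81 and 3.08 CPM on overexpression, endothelial markers between 17.1 and 20.5 and between 15.4 and 19.4 CPM, mostly PECAM1, and leukocyte markers between 6.88 and 9.22 and between 6.90 and 7.69 CPM, mostly CD14. In all, 4 of the 6 muscle, 4 of the 6 fibroblast, 2 of the 3 endothelial and 2 of the 3 leukocyte markers were analysed here.

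Target genes were higher on TKT overexpression and the coactivators were not. Of the 10 genes, 7 were higher past the threshold of an adjusted p-value under 0.05 in edgeR's quasi-likelihood test over all genes, 0 were lower and 3 did not pass. The 7 were ANKRD1, CCN1, CCN2, THBS1, AMOTL2, AJUBA and LATS2, and the 3 were YAP1, WWTR1 and TEAD1. Over all tested genes 5.69% were higher past this threshold and 4.94% lower, 10.6% in all. Since the genes were listed with this comparison known, nothing is read from that contrast of shares. With an absolute log2 fold change over 1 required as well, ANKRD1 alone passed, and 0.699% of all genes were higher and 0.0282% lower by this rule. The median log2 fold change was 0.36 over the 10 genes and 0.00 over all tested genes.

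**Figure D1:**
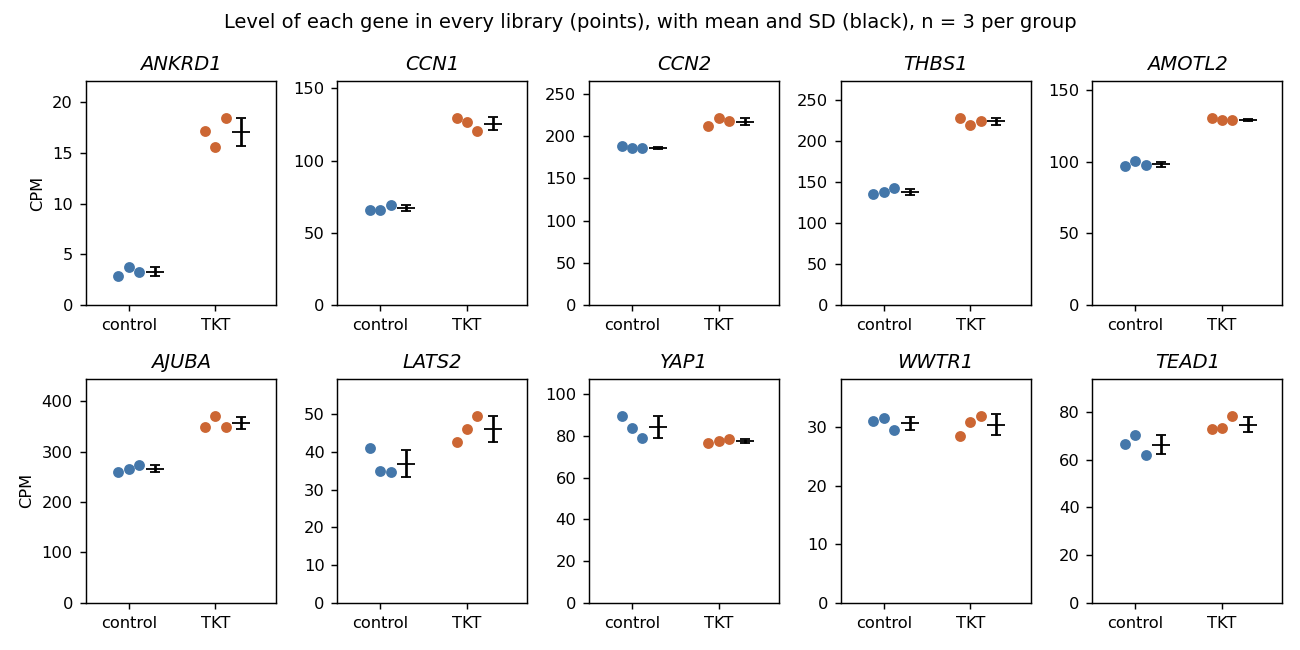
Level of each of the 10 genes in CPM (linear axis from 0, a separate scale for each gene) in 3 control (blue) and 3 TKT-overexpressing (orange) libraries, with the mean and SD in black. ANKRD1 separates most, from 3.31 to 17.0 CPM, whereas the points of WWTR1 overlap.

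ANKRD1 encodes a nuclear and sarcomeric ankyrin repeat protein, best known as a stress-induced cofactor of cardiac muscle, and lies on chromosome 10 of GRCh38.p14 from 90912096 to 90921087 on the minus strand. Its level was 2.86, 3.78 and 3.28 CPM in the control libraries and 17.1, 15.6 and 18.4 CPM in the TKT-overexpressing libraries. Every TKT-overexpressing library exceeded every control library, and the gap between the groups, 11.8 CPM, was wider than the range within either. The log2 fold change was 2.36 (standard error 0.13), a 5.15-fold difference, and 22 of the 14162 tested genes had a larger one. These values rest on 90, 115 and 110 counts in control cells against 634, 482 and 605 on overexpression, and the control libraries varied by 13.9% (SD over mean), the most of the 10 genes. Leaving out single libraries gave log2 fold changes from 2.27 to 2.47. In bulk RNA a change in the share of cells that express a gene and a change in RNA per cell cannot be told apart.

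CCN1 and CCN2 encode secreted matricellular proteins that bind integrins, and THBS1 encodes thrombospondin, a matrix glycoprotein that activates latent TGF-beta and restrains angiogenesis. CCN1 (chromosome 1, 85580761 to 85583950, plus strand) was at 65.9, 66.0 and 69.5 CPM in control cells and at 129, 127 and 121 CPM on overexpression. The groups did not overlap, and the log2 fold change was 0.90 (standard error 0.05), a 1.87-fold difference. THBS1 (chromosome 15, 39581079 to 39599466, plus strand) was at 135, 137 and 142 CPM in control cells and at 227, 219 and 224 CPM on overexpression. It did not overlap either, with a log2 fold change of 0.69 (standard error 0.04). CCN2 (chromosome 6, 131948176 to 131951372, minus strand) was at 187, 185 and 186 CPM in control cells and at 212, 221 and 218 CPM on overexpression. The control values of CCN2 varied by 0.644% (SD over mean), and the groups stood apart at a log2 fold change of 0.22 (standard error 0.04). CCN2 had the smallest log2 fold change of the 7 genes past the threshold.

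AMOTL2, AJUBA and LATS2 encode proteins that act on the pathway itself. AMOTL2 belongs to the motins, scaffolds that bind YAP and hold it at junctions and actin. Its level was 97.1, 100.3 and 97.6 CPM in control cells and 130.1, 128.9 and 129.0 CPM on overexpression. It varied least of the 10 genes on overexpression, by 0.552% (SD over mean), and differed by 0.40 on the log2 scale (standard error 0.04). AJUBA is a LIM protein that binds LATS kinases and restrains them. It was at 260.0, 264.6 and 272.9 CPM in control cells and at 349.4, 370.2 and 349.3 CPM on overexpression, with no overlap and a log2 fold change of 0.42 (standard error 0.04). In CPM its difference, 90.5, was the largest of the 10 genes, while that of ANKRD1 was 13.7. LATS2, the kinase that phosphorylates YAP and TAZ, was at 41.0, 35.0 and 34.7 CPM in control cells and at 42.7, 46.2 and 49.5 CPM on overexpression. The groups were 1.69 CPM apart, and the log2 fold change of 0.32 (standard error 0.07) lay between 0.27 and 0.40 with each library left out. AMOTL2 lies on chromosome 3 from 134355345 to 134375417, AJUBA on chromosome 14 from 22971177 to 22982551 and LATS2 on chromosome 13 from 20973036 to 21061586, all on the minus strand.

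The messages of the coactivators differed little between the groups, and that of TEAD1 was slightly higher without passing the threshold. YAP1 (chromosome 11, 102110447 to 102233424, plus strand) was at 89.5, 84.0 and 78.9 CPM in control cells and at 76.6, 77.4 and 78.4 CPM on overexpression. All 3 TKT-overexpressing libraries lay below the lowest control library, the nearest pair less than 1 CPM apart, and the log2 fold change was -0.12 (standard error 0.05). WWTR1 (chromosome 3, 149517235 to 149724788, minus strand) was at 31.0, 31.6 and 29.5 CPM in control cells and at 28.6, 31.0 and 31.9 CPM on overexpression, and the groups overlapped. Its log2 fold change of -0.01 (standard error 0.07) lay between -0.05 and 0.03 over 14 alternative analyses. TEAD1 (chromosome 11, 12674421 to 12944737, plus strand), a DNA-binding partner of YAP and TAZ, was at 66.5, 70.2 and 62.0 CPM in control cells and at 72.7, 73.1 and 78.2 CPM on overexpression. Its groups were 2.48 CPM apart and its log2 fold change was 0.17 (standard error 0.06), close to the 0.22 of CCN2, which passed. Altogether 9 of the 10 genes, YAP1 in the lower direction among them, had groups that did not overlap, against 28.0% of all tested genes. Since the genes were listed with this comparison known, nothing is read from these shares. RNA levels say nothing of the phosphorylation or location of YAP and TAZ, which were not measured here.

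**Figure D2:**
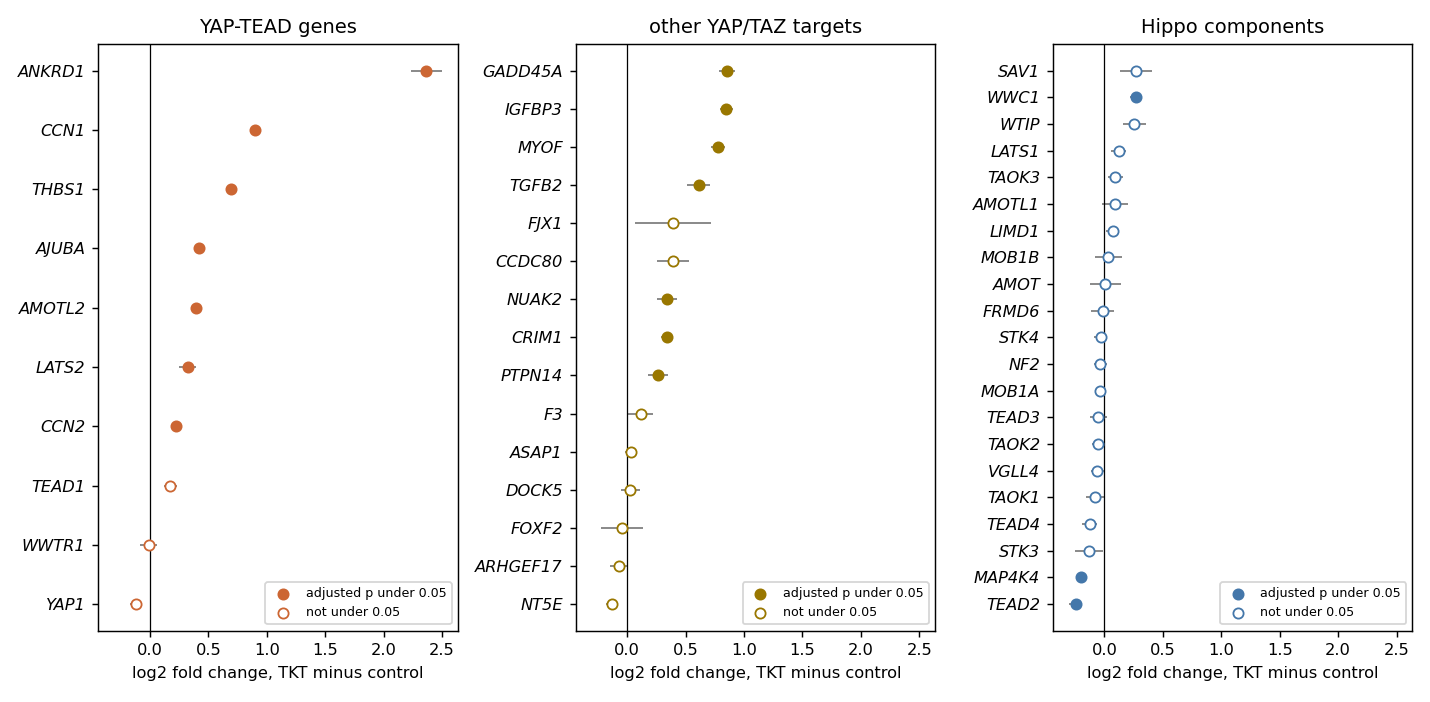
Log2 fold change of TKT-overexpressing over control cells (points) with its standard error (bars) for the 10 genes, for 15 other YAP/TAZ targets and for 21 Hippo components, where filled points are under an adjusted p-value of 0.05 in edgeR over all genes. The left panel runs from -0.12 for YAP1 to 2.36 for ANKRD1. In the middle panel 12 of the 15 lie above 0 and 8 did not pass, with a range from -0.13 for NT5E to 0.85 for GADD45A. The Hippo components lie between -0.24 and 0.27.

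Set in order of the difference from the control mean on the log2 CPM scale, the 10 genes formed a series in which only the top 3 stood clear of their neighbours. The 3 TKT-overexpressing libraries of ANKRD1 lay at 2.36, 2.23 and 2.46, those of CCN1 at 0.95, 0.92 and 0.85, and those of THBS1 at 0.72, 0.67 and 0.70. No value of one of these genes fell within the range of the next. AJUBA, AMOTL2, LATS2, CCN2 and TEAD1 followed, and each overlapped the next in its 3 values. WWTR1 lay below TEAD1 without overlap, and overlapped YAP1, the last.

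Within a group the genes did not share an order of libraries. Among the TKT-overexpressing libraries replicate 3 was the highest for ANKRD1, LATS2, YAP1, WWTR1 and TEAD1, replicate 1 for CCN1, THBS1 and AMOTL2, and replicate 2 for CCN2 and AJUBA. Among the controls, replicate 2 was the highest for ANKRD1 and replicate 1 for LATS2. No control library of any of the 10 genes lay more than 0.20 from the control mean on the log2 scale.

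**Figure D3:**
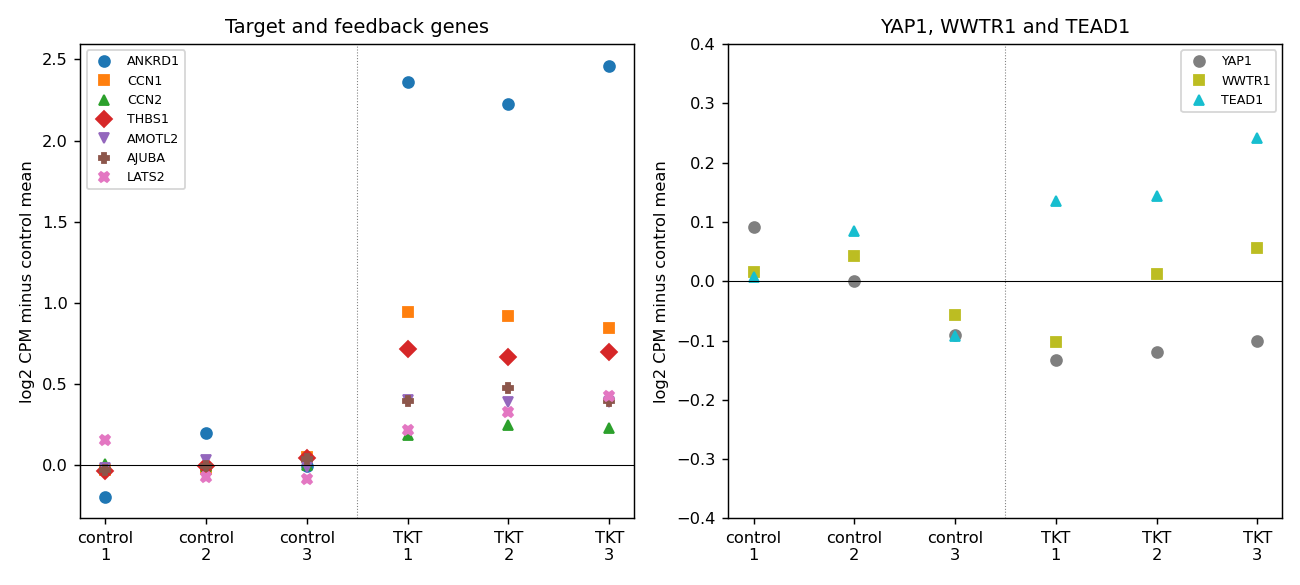
Log2 CPM of each library minus the mean of the 3 control libraries for the 7 target and feedback genes (left) and for YAP1, WWTR1 and TEAD1 (right, on an expanded axis); points left of the dotted line are controls. ANKRD1 lies above 2.2 in every TKT-overexpressing library, and no other gene exceeds 0.95.

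Likeness to ANKRD1 was described by Pearson's r of log2 CPM over the 6 libraries among 11232 other genes whose mean log2 CPM reached 1. The 6 points fall into the 2 groups, so r mostly reads the group difference and its steadiness, and it is given with no test. AMOTL2 ranked 4 (r = 0.998), THBS1 ranked 11 (0.994) and CCN1 ranked 49 (0.988). AJUBA ranked 111 (0.977), CCN2 ranked 131 (0.973), TEAD1 ranked 1019 (0.845) and LATS2 ranked 1172 (0.820). WWTR1 had an r of -0.08 and YAP1 one of -0.76. The 5 genes with the highest r were GCLC, UGDH, KLF11, AMOTL2 and TNFAIP3, and 35 genes had an r over 0.99. GCLC, a subunit of the enzyme that starts glutathione synthesis, was at 66.0 CPM in control cells and 86.2 on overexpression, and UGDH, which makes UDP-glucuronate, at 257 and 324 CPM. KLF11, a zinc finger factor, was at 6.09 and 14.6 CPM, and TNFAIP3, a feedback inhibitor of NF-kappa B, at 17.8 and 28.2 CPM. Of these, KLF11 had the largest log2 fold change, 1.26.

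Levels of different genes were compared as FPKM, which divides by gene length. In control cells CCN2 was the most abundant of the 10 at 79.2 FPKM (mean of 3), followed by AJUBA at 44.9, CCN1 at 18.1, AMOTL2 at 15.1, THBS1 at 15.0 and YAP1 at 13.3 FPKM. LATS2 was at 6.54, TEAD1 at 6.16, WWTR1 at 3.66 and ANKRD1, the lowest, at 1.84 FPKM. AMOTL2 and THBS1 overlapped in their control libraries, as did LATS2 and TEAD1, and all other neighbours in this order were apart. On overexpression ANKRD1 was at 9.50 FPKM, above TEAD1 at 6.97 and WWTR1 at 3.64, and its range overlapped that of LATS2 at 8.21 FPKM. THBS1, at 24.3 FPKM, was then above AMOTL2, at 19.9 FPKM, without overlap. YAP1 exceeded WWTR1 in every library, by 3.52 to 3.82 times in control cells and by 3.25 to 3.55 times on overexpression.

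**Figure D4:**
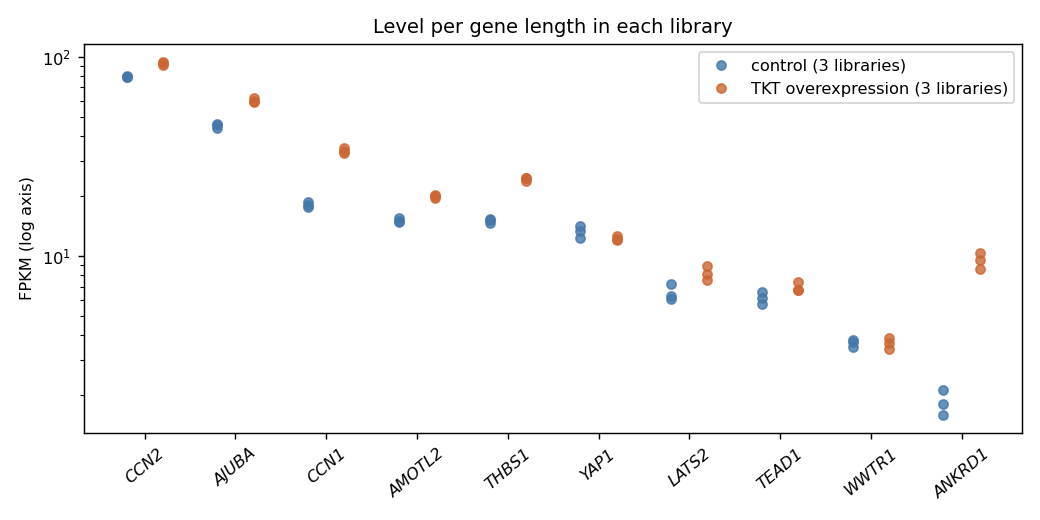
FPKM of the 10 genes (log axis) in the 3 control (blue) and 3 TKT-overexpressing (orange) libraries, ordered by the control mean. ANKRD1 moves from the lowest place, 1.84 FPKM, to between YAP1 and LATS2 at 9.50 FPKM, and CCN2 stays highest.

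Other genes widely listed as YAP/TAZ targets, 17 in a hand-written list that holds none of the 10, had more members higher than lower. This list too was chosen with earlier results of these data known, so it is a description and no independent check of the 10. Of the 15 tested, 7 rose, 0 fell and 8 did not pass (edgeR adjusted p-value under 0.05, against 5.69% of all genes higher and 4.94% lower). The median log2 fold change was 0.34, and 12 of the 15 were above 0. GADD45A, a growth arrest gene, rose from 25.8, 28.5 and 31.5 CPM to 53.8, 53.2 and 48.1 CPM, 0.85 on the log2 scale (standard error 0.07, adjusted p = 4.32e-08). IGFBP3, which binds insulin-like growth factors, rose from 37.2, 34.9 and 38.0 CPM to 67.4, 63.8 and 67.1 CPM, 0.85 on the log2 scale (standard error 0.06, adjusted p = 5.72e-10). MYOF, a ferlin of membrane repair, rose from 42.2, 48.1 and 42.5 CPM to 75.2, 77.2 and 75.1 CPM, 0.78 on the log2 scale (standard error 0.06, adjusted p = 3.83e-09). In all 3 genes the groups stood apart, by a log2 fold change close to that of CCN1.

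TGFB2, a ligand of the TGF-beta receptors, rose with 0.61 on the log2 scale (standard error 0.10, edgeR adjusted p = 2.41e-04). The kinase NUAK2 rose by 0.34 (standard error 0.09, adjusted p = 0.0118), and CRIM1, a transmembrane protein that binds BMPs, by 0.34 (standard error 0.05, adjusted p = 1.11e-04). NUAK2 did not pass without TKT overexpression replicate 3 (adjusted p = 0.0577) or without control replicate 1 (0.0528). The remaining gene past the threshold was PTPN14, a phosphatase that binds YAP, at 0.26 (adjusted p = 0.0456). PTPN14 did not pass in any fit that left out a TKT-overexpressing library, control replicate 1 or control replicate 3 (edgeR adjusted p from 0.0616 to 0.165), with a replicate block (0.118) or in limma on either FPKM scale (0.215 and 0.231). NT5E, the ecto-enzyme CD73, had -0.13 (adjusted p = 0.105), the lowest of the list. The AXL receptor had at most 2 counts and RBMS3 at most 36 in any library, so neither was tested. Windows with the TEAD letters were found in 5 of the 12 listed genes that have a RefSeq window, namely TGFB2, NUAK2, PTPN14, FOXF2 (log2 fold change -0.04, not past the threshold) and the untested AXL, and not in IGFBP3 or MYOF.

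Other components of the pathway were counted in the same way. A hand-written list held 23 kinases, scaffolds, TEAD paralogues and VGLL cofactors, of which 21 were tested. Among these 1 rose, 2 fell and 18 did not pass, against 5.69% of all genes higher and 4.94% lower, 10.6% in all. With 21 genes, nothing is read from this count. The median log2 fold change was -0.03. WWC1 (also called KIBRA), a scaffold that promotes LATS activity, rose from 74.3, 70.8 and 73.0 CPM to 86.6, 91.9 and 84.0 CPM, 0.27 on the log2 scale (standard error 0.05, edgeR adjusted p = 0.00166). TEAD2 fell from 54.1, 49.4 and 52.8 CPM to 43.4, 45.9 and 42.7 CPM, -0.24 on the log2 scale (standard error 0.06, adjusted p = 0.00737). MAP4K4, a kinase that acts on LATS beside the MST kinases, fell from 135.9, 137.9 and 126.8 CPM to 116.0, 116.0 and 116.3 CPM, -0.20 on the log2 scale (standard error 0.05, adjusted p = 0.00612). TEAD2 lost the threshold without TKT overexpression replicate 1 (adjusted p = 0.0508) or without control replicate 1 (0.0503), and MAP4K4 lost it in limma on log2(FPKM + 1) (0.0654) and on log2(FPKM + 0.1) (0.0640). The MST kinases STK3 and STK4 had log2 fold changes of -0.13 and -0.03, NF2 had -0.03, LATS1 had 0.12, and TEAD3 and TEAD4 had -0.05 and -0.12, with none of them past the threshold.

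Serum response factor and its MRTF cofactors respond to actin and share targets with YAP and TEAD. Of 16 genes of this programme, 14 were tested, and 2 rose and 0 fell, against 5.69% of all genes higher and 4.94% lower, with a median log2 fold change of 0.07. VCL, which encodes vinculin of focal adhesions, had 0.16 (standard error 0.04, edgeR adjusted p = 0.0144), and the tropomyosin TPM1 had 0.20 (standard error 0.06, adjusted p = 0.0227). Neither passed without TKT overexpression replicate 1 (adjusted p = 0.0961 and 0.202) or without control replicate 1 (0.0678 and 0.118), and VCL did not without control replicate 3 (0.0622). SRF itself had 0.04. ACTG1, a cytoplasmic actin with many near-identical copies, was at 285 CPM in TKT overexpression replicate 2 and between 20.0 and 50.8 CPM in the other libraries, and did not pass. Among the relatives of ANKRD1 and its sarcomere partners, ANKRD2 and MYPN had at most 4 and 2 counts in any library and were not tested, and ANKRD23 and TTN had log2 fold changes of -0.56 (standard error 0.57) and -0.18 (standard error 0.10) that did not pass.

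Reads of overlapping genes bear on some of these counts, since the strand and multi-mapping options of the counting are not given in the sources used here. GENCODE 29 places a gene on the opposite strand within CCN2, THBS1, LATS2, YAP1, WWTR1 and TEAD1, but none within ANKRD1, CCN1, AMOTL2 or AJUBA. AJUBA overlaps a protein-coding model on its own strand, AL132780.3, which was not analysed here. Where an overlapping gene was in the table, FSIP1 for THBS1 and WWTR1-AS1 for WWTR1 among them, it had at most 23 counts in any library.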

How the data were processed

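RNA-seq counts of 3 TKT-overexpressing and 3 control samples were used. The authors trimmed reads with fastp 0.22.0, aligned them to hg38 with HISAT2 2.1.0 and counted them per gene with featureCounts, per the labels and the Methods, and deposited whole-number counts without normalization. They also deposited FPKM values. Columns named TKT were matched to the over-expression samples by number, and 0 per-sample columns were left unused.

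The deposited counts were fitted with edgeR 4.0.16 under R 4.3.3 (low genes removed by filterByExpr at a minimum count of 10, TMM, robust quasi-likelihood test, Benjamini-Hochberg adjustment over 14162 genes, no block). The common biological coefficient of variation was 0.113. The alternatives were DESeq2 1.42.0 (named in the Methods), other scalings, no filter, limma 3.58.1 (voom, and log2(FPKM + 1) and log2(FPKM + 0.1)), the replicate number as a block, and each library left out. Standard errors are those of the log2 fold change. The scripts were tested on simulated counts. Replicate libraries differed beyond sampling noise (chi-square over its degrees of freedom from 6.90 to 9.41).

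The 10 genes, the other lists and the tests were chosen with earlier results of these data known. The genes named are all 10, the called genes of each other list (at most the 6 with the largest change), the 5 most like ANKRD1, and TKT; PTPN14, the genes of the lists named without being called and those of the closing section were chosen after their values were seen. Coordinates and promoter windows are from RefSeq (GRCh38.p14).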

Additional observations from a re-analysis of the deposited data

How the results depend on the processing

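The 7 genes higher and 0 lower among the 10 became 6 to 8 higher and 0 lower over 14 alternatives, and 1 higher when an absolute log2 fold change over 1 was required as well. The count higher was 6 in limma on either FPKM scale. It was 8 with upper-quartile scaling, with no filter, in limma-voom and without control replicate 2. The other YAP/TAZ targets had 5 to 7 higher and 0 lower in the same 14, and 0 higher with that fold. The log2 fold change of ANKRD1 was 1.89 in limma on log2(FPKM + 1), whose pseudocount compresses low genes, and 2.27 to 2.47 otherwise. That of each of the other 9 genes moved by less than the spread between replicates in all 14. Hippo components numbered 1 to 2 higher and 1 to 2 lower with each library left out, and 1 lower in limma on either FPKM scale. SRF-MRTF targets numbered 0 to 3 higher with each library left out, 0 higher in limma on either FPKM scale and, in a fit with a replicate block, 0. With the fold required, each of these counts was 0. The cause of these shifts was not tested. Same-numbered libraries of the groups deviated from their group means with correlations between -0.03 and 0.02, so no pairing by number showed in the counts. Whether same-numbered samples were prepared together is not known from the labels. The block left 697 genes called of all tested, against 1505 without it, 7 of the 10 higher, and 6 of the other targets higher. Calls over all genes were 827 and 826 in limma on log2(FPKM + 1) and log2(FPKM + 0.1), and 791 to 1586 with each library left out, fewest without TKT overexpression replicate 1. At this depth ANKRD1 rests on 90 to 115 counts in control libraries, and genes of few counts were not tested.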

Other observations

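The deposited table assigns 143 genes to the KEGG term Hippo signaling pathway, of which 6 are among the 10 genes of the report. Of the 117 other tested genes of the term, edgeR called 16 higher and 6 lower (adjusted p under 0.05), against 5.69% and 4.94% of all tested genes, and their median log2 fold change was 0.05. The 6 lower were FZD3 (log2 fold change -0.30), TEAD2 (-0.24), ID1 (-0.20), PPP1CA (-0.14), BIRC5 (-0.14) and PPP1CC (-0.13). The term holds many ligands and receptors of the WNT, BMP and TGF-beta families. Among its genes called by edgeR with a log2 fold change over 1 were PATJ, a scaffold of the Crumbs polarity complex, at 1.78 (standard error 0.26, adjusted p = 8.68e-05), and AREG, a ligand of the EGF receptor, at 1.16 (0.15, adjusted p = 1.37e-05). AREG went from 4.31 to 9.61 CPM.

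The calls were also counted by the letters in the promoter window. Among 7804 tested genes with a single RefSeq window, 6.77% of the 857 with the TEAD letters were called higher by edgeR (adjusted p under 0.05), and 5.50% of the 6947 without. The shares called lower were 4.20% with and 5.50% without. Of the 67 genes with at least 2 matches, 7 were higher and 1 was lower. Those of the 10 genes with a single window were kept in all these counts. ANKRD1 and CCN2, which were listed with this comparison known, are among the 7, and ANKRD1 also holds the AP-1 letters. For the AP-1 letters the shares higher were 8.55% of 339 with and 5.51% of 7465 without, and for the CArG box 7 of 72 with and 5.60% of 7732 without. These shares are descriptions with no test.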
